A study of Mus musculus with 23 samples.

Results

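The 8 mouse genes studied here belong to the interferon response and were followed across all libraries of the series: the guanylate-binding protein genes Gbp2, Gbp2b and Gbp3, the ubiquitin-like modifier gene Isg15, the interferon-induced transmembrane genes Ifitm1, Ifitm2 and Ifitm3, and the transcription factor gene Irf1. They are 8 of 55573 genes in the count files, and each symbol matched 1 Ensembl gene. They were listed by name and chosen by their CPM in untreated SET knockout (KO) and wild-type (WT) cells, which were known when the list was made, so the KO against WT values of untreated cells below are a description with no test. The cells were mouse embryonic stem cells (ESCs) grown on mouse embryonic fibroblast feeders in medium with serum and LIF. SET is a nuclear protein that binds histones and blocks the phosphatase PP2A. All RNA was measured with QuantSeq, which counts tags from the 3′ end of polyadenylated transcripts.

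R1 ESCs were either wild type (labelled Wt) or SET-/-, with 2 knockout lines named KO1 and KO2. The first set had 2 WT, 2 KO1 and 2 KO2 samples, named 1a to 1f by the codes in their titles. The second set had 2 WT samples (2a and 2b), 2 KO1 samples (2c and 2d) and 2 KO2 samples (2e and 2f) without treatment, and 1 WT sample (2g) and 2 KO1 samples (2h and 2i) after 4 days of retinoic acid (RA), which makes ESCs differentiate. KH2 ESCs carried an HA-tagged SETa under doxycycline control, with 2 samples given 1 µg/mL doxycycline (Dox) for 24 h and 2 without. The codes 2a, 2b, 2d and 2e had 2 libraries each, which were summed, giving 19 samples from 23 libraries. The labels say neither whether samples of a group came from separate cultures nor whether a line name stands for the same clone in both sets, so a p-value here reflects the spread between these samples alone, which may be technical.

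Interferons bind receptors on the cell surface and act through JAK kinases and STAT transcription factors, which bind 2 short DNA motifs: the interferon-stimulated response element (ISRE) and the gamma-activated site (GAS). Guanylate-binding proteins are large GTPases that gather on the vacuoles of intracellular pathogens, IFITM proteins sit in membranes and hinder the entry of viruses, and ISG15 is attached to other proteins as ubiquitin is. IRF1 is itself induced by interferon and binds ISRE-like sites. Undifferentiated ESCs are known for a weak response to interferon, while Ifitm genes are also expressed in early embryonic and germ cells without it.

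Gbp3, Gbp2b and Gbp2 lie next to each other on the plus strand of chromosome 3 in GRCm38, from 142560026 at the start of Gbp3 to 142638008 at the end of Gbp2. Ifitm2, Ifitm1 and Ifitm3 lie within chromosome 7 from 140954837 to 141010770, with Ifitm1 on the plus strand and the other two on the minus strand. Isg15 is on the minus strand of chromosome 4 (156199455 to 156200796), and Irf1 on the plus strand of chromosome 11 (53770014 to 53778374). The counts are over exons. In the last 500 bases of the transcripts, 41.9% of the 50-base windows of Ifitm2 also occur in transcripts of other genes, against 14% for Ifitm3, 11.8% for Ifitm1, 0.665% for Isg15 and 0% for the other members. Reads from such windows cannot be placed on 1 gene, so the levels of the 3 Ifitm genes are less certain than those of the other members.

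RefSeq promoter windows (GRCm38.p6, 250 bases before to 50 after a transcript start) were found for all 8 members, 10 windows in all. They were searched on both strands for the ISRE, as GAAA, 2 bases of any kind and GAAA, and for the GAS core, as TTC, 3 bases of any kind and GAA. The ISRE matched in 6 members and the GAS in 2, and 3.44% and 8.3% of all 32851 windows of 300 bases hold them. The 150 bases before the start of the 6 members with a match there are shown 5′ to 3′ on the gene's strand, because these are the letters the interferon-responsive factors are known to read. Capitals mark the ISRE matches, and for Irf1 the GAS match. The stretches are chr3:142620513-142620662, chr3:142594697-142594846, chr3:142559894-142560043 and chr11:53769864-53770013 on the plus strand, and chr4:156200819-156200968 and chr7:140955962-140956111 on the minus strand.
Gbp2: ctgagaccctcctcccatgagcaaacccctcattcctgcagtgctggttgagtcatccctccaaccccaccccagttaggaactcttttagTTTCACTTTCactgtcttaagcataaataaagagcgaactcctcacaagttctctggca
Gbp2b: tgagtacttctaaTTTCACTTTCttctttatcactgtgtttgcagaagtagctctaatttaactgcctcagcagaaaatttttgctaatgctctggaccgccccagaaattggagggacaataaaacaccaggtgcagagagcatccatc
Gbp3: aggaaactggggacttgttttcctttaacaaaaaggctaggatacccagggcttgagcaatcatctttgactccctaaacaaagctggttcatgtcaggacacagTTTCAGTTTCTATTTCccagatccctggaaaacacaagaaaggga
Isg15: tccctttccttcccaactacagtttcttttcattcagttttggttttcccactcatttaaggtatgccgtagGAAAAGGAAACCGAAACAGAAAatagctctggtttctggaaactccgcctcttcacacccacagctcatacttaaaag
Irf1: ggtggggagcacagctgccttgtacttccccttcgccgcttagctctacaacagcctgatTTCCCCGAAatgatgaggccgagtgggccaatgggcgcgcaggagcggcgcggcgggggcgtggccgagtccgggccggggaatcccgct
Ifitm2: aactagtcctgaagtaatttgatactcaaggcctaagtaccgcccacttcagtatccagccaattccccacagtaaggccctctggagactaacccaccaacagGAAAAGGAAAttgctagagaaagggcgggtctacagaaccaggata

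Isg15 holds 3 ISRE matches that overlap one another, beginning 78, 72 and 66 bases before the start, and Gbp3 holds 2 that overlap, 45 and 39 bases before its first start. Gbp2, Gbp2b and Ifitm2 hold 1 each, beginning 59, 137 and 46 bases before the RefSeq start. The Ensembl gene of Gbp2 begins just upstream of its match, at 142620602, so that match lies inside the Ensembl gene. Gbp2 and Gbp2b share the same 10 letters, read on the reverse strand. Irf1 holds no ISRE match but 1 GAS match, beginning 90 bases before its first start. In Ifitm3 the matches lie after the start: 2 of the ISRE, beginning 2 and 19 bases past it, and a GAS match at 13 that overlaps the second ISRE. The only Ifitm1 window (140967826 to 140968125) held neither set of letters. The Ensembl gene begins upstream of that window, at 140967221, and the bases around that start were not searched. A match describes the letters in a window and not a bound site.

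**Figure D1:**
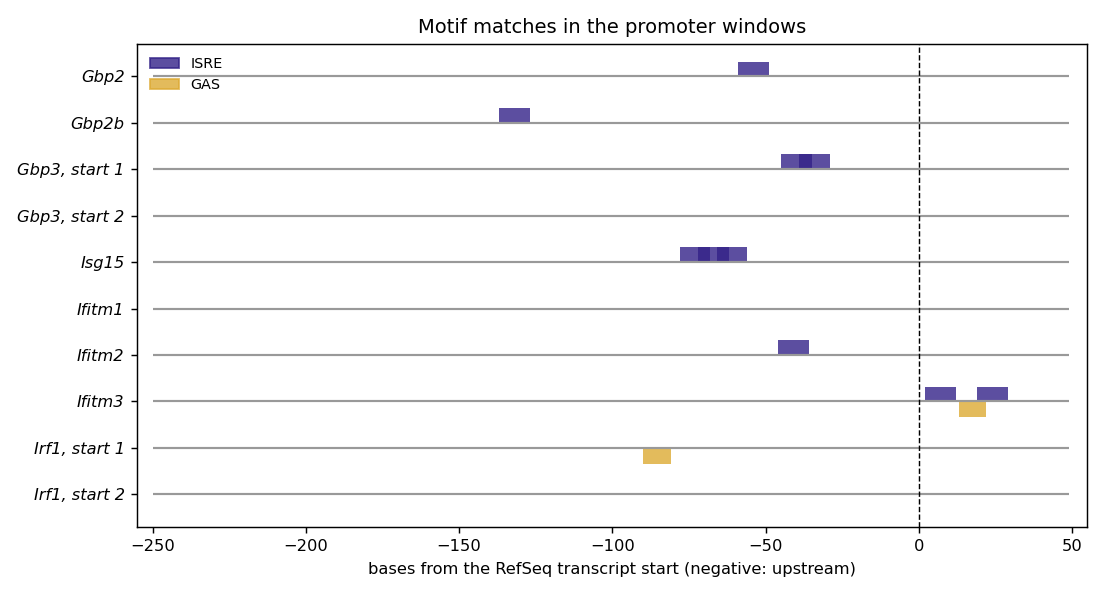
Positions of ISRE (blue) and GAS (yellow) matches in the 10 RefSeq promoter windows, with the x axis in bases from the transcript start and 1 line per window. Matches fall before the RefSeq start in Gbp2, Gbp2b, Gbp3, Isg15, Ifitm2 and Irf1 and after it in Ifitm3, with none in the 1 window of Ifitm1.

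Levels are given as CPM, the count scaled to a common library total. Total counts ran from 806412 to 1445013 per sample in set 1, from 2833064 to 10217040 in set 2 and from 4848478 to 6472695 in KH2. One count was therefore worth about as much in set 1 as several in the other sets, and the low members are given with raw counts. Set itself averaged 998 ± 30.5 CPM (SD, n = 2) in the WT samples of set 1 and 21.7 ± 3.53 (n = 4) in its KO samples. The set 2 means were 1295 ± 149 for WT (n = 2) and 437 ± 131 for KO (n = 4), so the libraries labelled SET-/- held more Set tags in set 2. The labels do not place the lesion relative to the 3′ end. The 7 pluripotency markers summed to 1880 to 3232 CPM in untreated R1 WT and to 1327 to 1650 in KO, to 186 after RA in WT and 202 to 203 in KO, and to 2299 to 2938 in KH2. None of the 7 was at 0 in any group.

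For each gene, the mean of each group (WT, KO1 or KO2) was first subtracted, so genotype could not drive the split described here. The untreated set 2 libraries then fell into 2 clusters on the leading principal component of 11362 genes that include no member (33.8% of the variance left). The gap between the clusters was 18.4, against spans of 19.4 and 14.3 within them. Cluster A held 2 WT and 3 KO libraries and cluster B the same numbers. The subtraction puts every group on both sides, so this balance is not a finding. The 2 libraries of each of the codes 2a, 2b, 2d and 2e were in different clusters. Sample 2c was a cluster B library only and 2f a cluster A library only. The clusters come from the data and not from the labels, and the members are given within each of them below. The RA libraries were placed in neither.

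The 3 guanylate-binding genes were low in WT cells and higher in every KO sample of both sets. Gbp2 was at 1.67 and 1.72 CPM in the WT samples of set 1, which is 2 counts in each. In the KO samples of that set it was at 37.6, 34.7, 29.6 and 41.0 CPM (34 to 65 counts), 21.3 times the WT level (95% interval 8.19 to 79.1, exact, counting error only, as are the other intervals of ratios). In set 2 it was at 3.55 and 1.35 CPM in WT and at 5.17, 7.05, 10.5 and 9.92 CPM in KO, a ratio of 4.6 (2.97 to 7.42). The groups did not overlap in either set, and the KO samples of set 1 stood above all those of set 2. The share of all genes whose KO and WT samples were apart was not counted, here or for the members below. The WT sample 2b carries much of the set 2 difference: the fitted log2 fold change was 2.02 (SE 0.43), and 1.2 without that sample.

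Gbp2b followed Gbp2 closely. Set 1 gave 3.34 and 3.45 CPM for WT against 37.6, 44.4, 51.8 and 53.0 CPM for KO. Set 2 gave 3.88 and 4.06 CPM for WT against 21.0, 15.2, 15.8 and 11.9 CPM for KO. Every KO sample was above every WT sample, by 14.1 times (7.06 to 33.1) in set 1 and 4.06 times (3 to 5.6) in set 2. Gbp3 had the fewest counts of the family: 1 count in each WT sample of set 1 against 4, 9, 6 and 18 in KO, and 2 and 15 counts in WT of set 2 against 8, 17, 14 and 12 in KO. In CPM these were 0.835 and 0.861 against 4.43 to 11.4 in set 1, and 0.646 and 1.56 against 2.58 to 3.97 in set 2. The ratio was 8.53 (2.2 to 73.1) in set 1 and 2.38 (1.35 to 4.4) in set 2.

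Isg15 had 1 and 0 counts in the WT samples of set 1 and 7, 4, 9 and 11 in the KO samples. The 3-count floor of the WT sample without a count is 2.78 CPM, which is above the level of KO sample 1d (2.77 CPM), so the size of the difference in set 1 is poorly known (14.3 times, 2.38 to 583). Set 2 was deeper. There Isg15 was at 0.646 and 1.46 CPM in WT (2 and 14 counts) and at 11.8, 8.54, 10.5 and 18.8 CPM in KO (32 to 57 counts), 9.53 times the WT level (5.72 to 17). Without WT sample 2b the fitted log2 fold change of set 2 moved from 3.28 to 4.15 for Isg15 and from 1.28 to 2.21 for Gbp3. Isg15 was the only member besides Irf1 whose mean in KO was higher in set 2 than in set 1.

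Irf1 had 51.8 and 57.7 CPM in the WT samples of set 1 and 158, 200.3, 159 and 148 CPM in the KO samples, 3.08 times higher (2.55 to 3.73). In set 2 it was at 134 and 91.9 CPM in WT and at 333, 214, 223 and 157 CPM in KO, 2.29 times higher (2.15 to 2.44). All KO samples were above all WT samples in both sets. The spread within set 2 went with the library clusters: WT libraries were at 62.4 and 67.4 CPM in cluster A and 187 and 191 in cluster B, 2.92 times higher, and KO libraries were 2.13 times higher in B. Within a cluster, KO was above WT by 2.05 times in A and 1.5 times in B.

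The 3 Ifitm genes, of 1 family and 1 locus, did not move together. In set 1, Ifitm3 had 92.7 and 84.4 CPM in the WT samples and 221, 318, 216 and 186 CPM in the KO samples (2.69 times, 2.32 to 3.13). In set 2 the WT samples had 74.6 and 76.1 CPM and the KO samples 90.0, 101, 104 and 88.6 CPM (1.34 times, 1.24 to 1.45). The groups were apart in both sets, with a larger gap in set 1. Ifitm1 overlapped between WT and KO in both: 120 and 110 CPM against 113 to 141 in set 1, and 86.2 and 73.9 against 64.8 to 93.0 in set 2. Ifitm2 was at 80.2 and 44.8 CPM in WT of set 1, more apart from each other than the KO samples (31.0 to 50.6 CPM). In set 2 all 4 KO samples (16.2 to 18.5 CPM) were below both WT samples (25.2 and 25.4 CPM), a ratio of 0.71 (0.604 to 0.835).

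**Figure D2:**
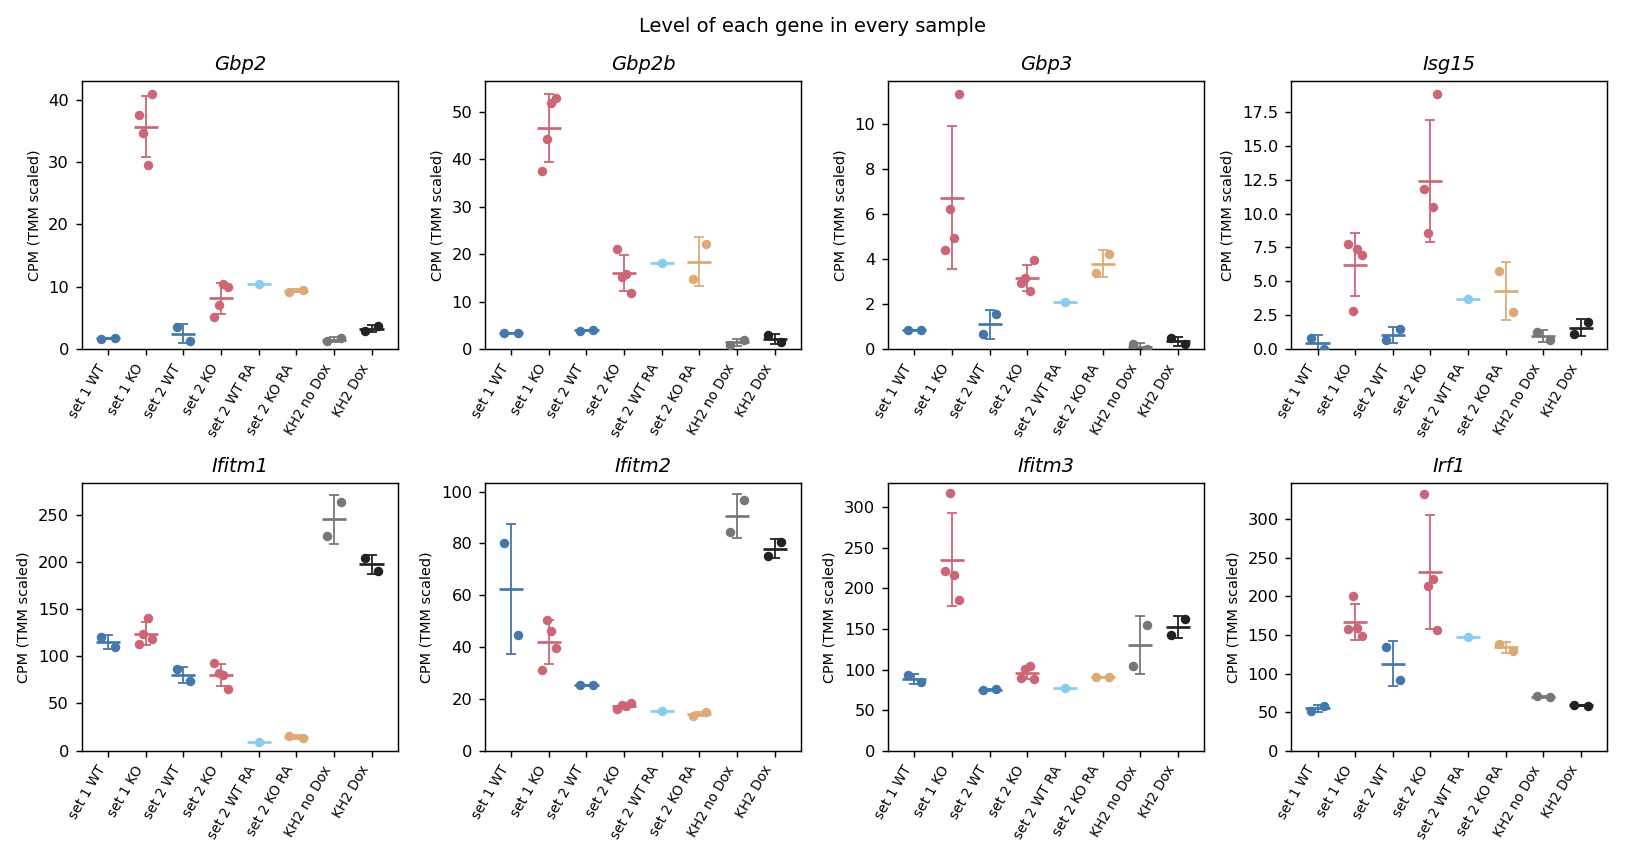
CPM (y axis, linear, from 0) of each gene in every sample (points), with the group mean (line) and SD (bar, groups of 2 or more), for the 8 groups on the x axis. Gbp2 and Gbp2b are highest in the set 1 KO samples (29.6 to 41.0 and 37.6 to 53.0 CPM), and Ifitm1 is lowest after RA (9.16 to 15.8 CPM).

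With the set as covariate and the edgeR quasi-likelihood F test, 2194 of 11515 genes (19.1%) differed between KO and WT over both sets at a Benjamini-Hochberg adjusted p under 0.05. The share was 12.3% in set 1, where Gbp3 and Isg15 were under the count filter, and 9.19% in set 2. These are the contrasts the members were chosen by, so no call of a member is given for them. In set 1, 1200 genes were called, and 570 without WT sample 1a. The number of genes called in set 2 was 1165, which fell to 195 without WT sample 2b and rose to 2335 without KO2 sample 2f.

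**Figure D3:**
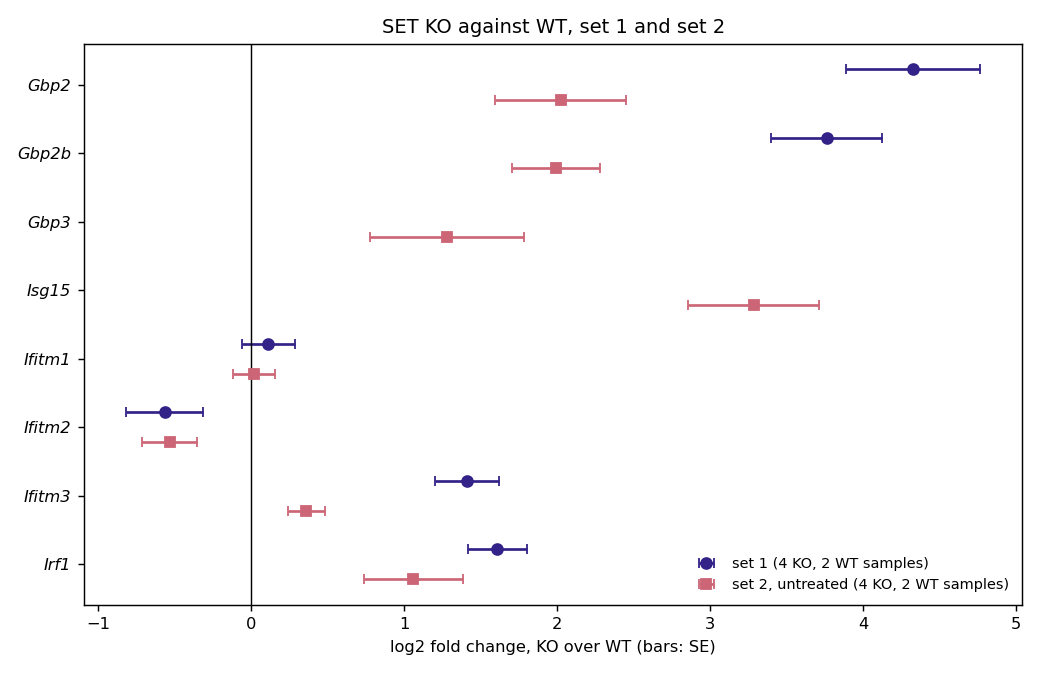
Log2 fold change of KO over WT (x axis) with its SE (bars) for each gene in set 1 (circles) and in untreated set 2 samples (squares), from the fits within each set. Gbp3 and Isg15 have no set 1 point because their counts were under the filter, and the 2 sets are far apart for Gbp2, Gbp2b and Ifitm3.

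Within the library clusters of set 2, KO was above WT in both for 6 members and below in both for Ifitm1 and Ifitm2, as means over libraries. The members were chosen by these levels, and the share of all genes with the same direction in both clusters was not counted, so this is a description. The ratio was 5 in A and 1.92 in B for Gbp2, and 3.93 and 4.85 for Gbp2b. It was 4.44 and 2.46 for Gbp3, and 18.1 and 4.95 for Isg15. For Ifitm3 it was 1.26 and 1.33, for Ifitm2 0.876 and 0.66, and for Ifitm1 0.907 and 0.966. Gbp2b and Ifitm3 had near-equal levels in both clusters, while Irf1 differed between clusters by more than between genotypes.

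**Figure D4:**
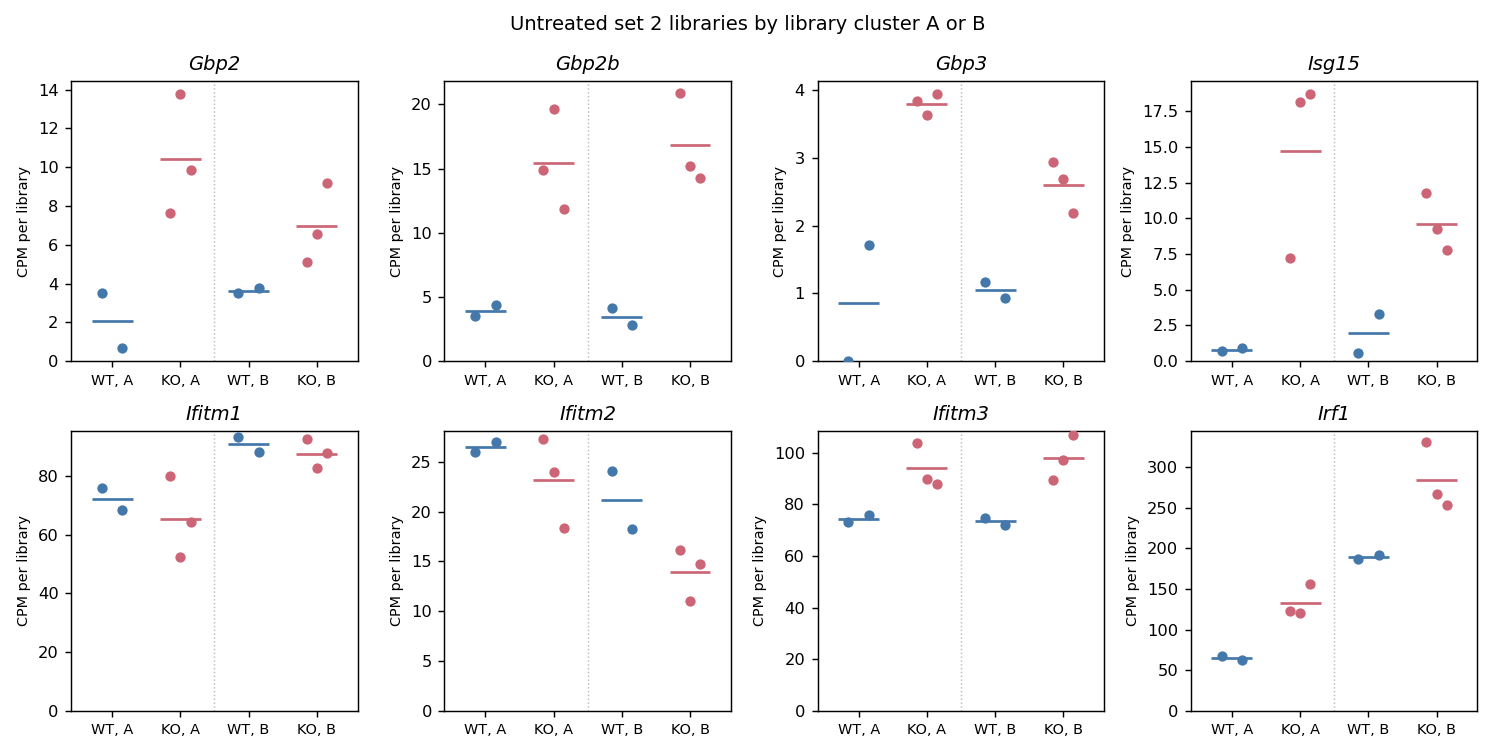
CPM per library (y axis, linear, from 0) of each gene in the 10 untreated set 2 libraries, split by genotype and by library cluster A or B, with the mean of each as a line. Irf1 is at 62.4 and 67.4 CPM in WT cluster A and at 187 and 191 in WT cluster B, whereas Gbp2b lies between 2.81 and 4.34 CPM in all 4 WT libraries.

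The difference of the KO effect between the sets, the interaction of set and genotype, is built from the same untreated samples and is given as a description. It called 0.828% of all genes. The log2 fold change in set 2 minus that in set 1 was -1.06 (SE 0.24) for Ifitm3, -2.34 (SE 0.77) for Gbp2 and -1.81 (SE 0.53) for Gbp2b. The KO1 and KO2 lines were compared within each set, where 0.0102% of genes differed in set 1 and 0.0237% in set 2. None of the 6 members tested in set 1 or the 8 in set 2 was called by edgeR, with unadjusted p-values from 0.055 to 0.98, or by DESeq2. The largest difference between the lines was that of Gbp2 in set 2, 0.70 higher in KO2 on the log2 scale (SE 0.38, edgeR adjusted p = 0.89).

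After RA, Gbp2 and Gbp2b were higher than in untreated WT cells, near the levels of untreated KO cells of the same set. The RA comparisons reuse the untreated samples that the members were chosen by, in which a low WT or a high KO level favours a rise or a fall, and the WT RA group is 1 sample. The values of members that differed between untreated KO and WT are therefore a description, without p-values. In the WT RA sample Gbp2 was at 10.5 CPM (40 counts), Gbp2b at 18.1 CPM (69 counts), Gbp3 at 2.09 CPM (8 counts) and Isg15 at 3.66 CPM (14 counts), each above both untreated WT samples. Gbp2 was 5.75 times (3.38 to 9.97) and Gbp2b 4.67 times (3.2 to 6.84) the untreated level. The fitted log2 fold changes were 2.36 (SE 0.47) and 2.15 (SE 0.36), and that of Gbp2 was 1.48 against the cluster B libraries alone and 1.52 without WT sample 2b. They were 1.54 (SE 0.68) for Isg15 and 0.68 (SE 0.75) for Gbp3.

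In KO cells both RA samples were of line KO1, while the untreated level was the mean of KO1 and KO2 and the untreated ranges span both lines. The fitted changes with RA were 0.18 for Gbp2 (SE 0.29) and 0.18 for Gbp2b (SE 0.22) on the log2 scale. Gbp2 was at 9.17 and 9.49 CPM after RA against 5.17 to 10.5 before, a ratio of 1.12 (0.847 to 1.46). Gbp2b was at 14.8 and 22.1 CPM after RA against 11.9 to 21.0 before, a ratio of 1.17 (0.961 to 1.42). Isg15 in KO was at 5.78 and 2.74 CPM after RA against 8.54 to 18.8 before (log2 -1.50, SE 0.35), and no RA sample reached an untreated one. Irf1 was at 139 and 129 CPM after RA against 157 to 333 before (log2 -0.80, SE 0.22). With the untreated libraries of cluster A alone its change was -0.02 and with those of cluster B alone -1.08, so its difference rests on cluster B. In WT the change of Irf1 was 0.39 (SE 0.31) and had opposite signs against cluster A (1.17) and cluster B (-0.40).

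Ifitm1, which overlapped between untreated KO and WT, fell with RA in both genotypes. It went from 86.2 and 73.9 CPM to 9.16 in WT (log2 -3.13, SE 0.26, edgeR adjusted p = 1.4e-10) and from 64.8 to 93.0 CPM to 15.8 and 13.3 in KO (log2 -2.49, SE 0.17, edgeR adjusted p = 7.4e-13). Ifitm2 in WT was at 15.4 CPM after RA against 25.2 and 25.4 before (log2 -0.73, SE 0.28), and its change in KO was -0.33 (SE 0.20). Ifitm3 had changes within 0.12 of 0 on the log2 scale in both, at 77.7 CPM in WT and 90.5 and 91.1 CPM in KO after RA. In all, 4 of 8 members were called in WT, where 47.3% of all genes were, and 3 of 8 in KO, where 55.1% were, and nothing is read from these counts.

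No member passed the test between the genotypes after RA. The RA samples compared here are not part of the contrast the members were known from. The spread in the test is pooled over all set 2 samples, however, so the p-values also rest on untreated ones. The comparison of KO with WT after RA called 58 of 14659 genes (0.396%) and 0 of 8 members (edgeR, smallest adjusted p = 0.74). Of these 1, Ifitm1, had an unadjusted p under 0.05, and DESeq2 called 0. The KO over WT ratio of CPM was 0.893 (0.609 to 1.33) for Gbp2, 1.02 (0.767 to 1.37) for Gbp2b, 1.82 (0.832 to 4.51) for Gbp3 and 1.18 (0.63 to 2.34) for Isg15. It was 1.59 (1.09 to 2.38) for Ifitm1, 0.918 (0.672 to 1.27) for Ifitm2, 1.17 (1.03 to 1.34) for Ifitm3 and 0.915 (0.828 to 1.01) for Irf1. With 1 WT and 2 KO samples, and both KO samples from line KO1, these intervals leave out the spread between cultures.

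The difference of the RA effect between genotypes contains the untreated KO against WT contrast, so it is given as a description. It was -3.04 (SE 0.78) for Isg15, -2.17 (SE 0.56) for Gbp2, -1.97 (SE 0.43) for Gbp2b and -1.19 (SE 0.38) for Irf1 on the log2 scale, the change in KO minus that in WT. For the other members it lay between -0.43 and 0.64. The threshold was passed by 1.09% of all genes and by 1 member, Gbp2b, which did not pass it with DESeq2, without WT sample 2b or without KO1 RA sample 2h.

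**Figure D5:**
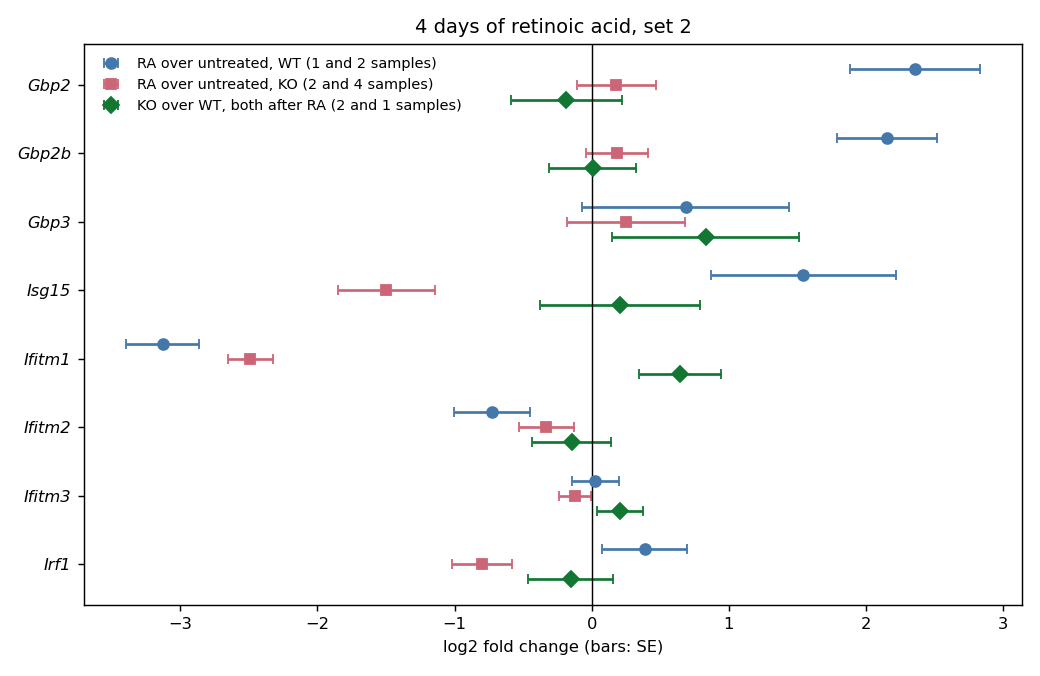
Log2 fold changes (x axis) with SE (bars) for each gene in set 2: RA over untreated in WT (circles), RA over untreated in KO (squares), and KO over WT with both after RA (diamonds). Gbp2 and Gbp2b lie above 0 in WT (2.36 and 2.15) and lie near 0 in KO (0.18 and 0.18), and Ifitm1 is far below 0 in both genotypes.

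In KH2 cells, where Dox was given to induce SETa instead of SET being lost, Set counts were at 985 ± 43.4 CPM without Dox and 1192 ± 101 CPM with it (n = 2 each). Whether the 3′ end of the tagged SETa transcript is counted as Set is not known here, so these values may not measure the induced SETa. Gbp2 was at 1.28 and 1.75 CPM without Dox and 2.92 and 3.63 with it (6 and 8 against 18 and 18 counts), Gbp2b at 0.852 and 1.97 against 2.92 and 1.41 CPM, and Isg15 at 1.28 and 0.658 against 1.13 and 2.02 CPM. Gbp3 had 1 and 0 counts without Dox and 3 and 1 with it. Of these 4 only Gbp2 was apart between the groups, higher with Dox, while Ifitm1, Ifitm2 and Irf1 were apart too, lower with Dox. Groups of 2 samples can be apart by chance, and the share of all genes apart was not counted. Ifitm1 was at 227 and 263 CPM without Dox and 204 and 190 with it, Ifitm2 at 84.6 and 96.7 against 75.3 and 80.5, Ifitm3 at 104 and 155 against 142 and 162, and Irf1 at 70.3 and 69.9 against 59.1 and 58.1. None of the 5 members tested was called by edgeR, where 1.8% of all genes were, or by DESeq2, 1 had an unadjusted p under 0.05 (Ifitm1), and Gbp2b, Gbp3 and Isg15 were too low to be tested. Gbp2 had a log2 fold change of 1.09 (SE 0.55, adjusted p = 0.35) and Ifitm1 of -0.31 (SE 0.11, adjusted p = 0.17) in that fit.

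Across the 8 groups, the order of mean levels gave 4 patterns. Gbp2, Gbp2b and Gbp3 were highest in set 1 KO, with the RA groups and untreated set 2 KO in the next 3 places, and lowest in KH2 without Dox. Isg15 was highest in set 2 KO (12.4 ± 4.49 CPM, n = 4) and Irf1 likewise (232 ± 73.8, n = 4), and for both the set 1 KO samples came next. Ifitm1 and Ifitm2 were highest in KH2 without Dox (245 ± 25.7 and 90.6 ± 8.54 CPM, n = 2) and lowest after RA. Ifitm3 was highest in set 1 KO (236 ± 57.2, n = 4), followed by KH2, and lowest in set 2 WT (75.3 ± 1.02, n = 2).

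Over the 19 samples the correlation of log2(CPM + 1) was 0.92 between Gbp2 and Gbp2b, 0.80 between Ifitm1 and Ifitm2, 0.78 between Gbp2b and Irf1 and -0.73 between Ifitm2 and Irf1. Among 10140 other genes that averaged 5 CPM or more, those most like Gbp2 included Tmcc3 (Pearson r = 0.94) and Adgrl2 (0.91), and those most like Gbp2b were Tmcc3 (0.97), Sema3e (0.96) and Adgrl2 (0.96). For Irf1 they were T (0.95), which encodes the mesoderm transcription factor Brachyury, Igsf9 (0.92) and Sel1l3 (0.91). For Ifitm1 they were Echdc2, Tpi1 and Syce2 (0.97 each), for Ifitm2 Asns (0.98), Qars (0.97) and Dars (0.97), which encode an asparagine synthetase and 2 aminoacyl-tRNA synthetases, and for Ifitm3 Ube4b (0.90), Ap3b2 (0.89) and Kcnk1 (0.87). The samples share cell line, set and treatment, so these values describe the pattern over groups.

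The rest of the interferon pathway was read from 8 lists of 106 other genes. Of the 10 interferon ligand genes, including Ifnb1 and Ifng, 9 had no count in any sample, and Ifnk had 1 count in 1 KH2 sample. Of 43 genes tested over both sets, 9 were higher in KO, 4 lower and 30 not called, where 19.1% of all genes were called, with a median log2 fold change of 0.11. Because the lists were drawn up with earlier results of these data known, the calls are a description and not separate support for the members. The genes called included Gbp7, another guanylate-binding gene (2.39, SE 0.37, edgeR adjusted p = 7.2e-05), Ifitm7 (1.97, SE 0.35, edgeR adjusted p = 0.00057), Irgm1, an immunity-related GTPase (1.36, SE 0.43, edgeR adjusted p = 0.029) and Ifi35 (1.23, SE 0.32, edgeR adjusted p = 0.0078). Socs1, an inhibitor of JAK signalling (0.75), and Jak2 (0.78) were also higher, and the kinase gene Tyk2 (-0.71), Irf5 (-1.37) and Irf2bpl (-1.13) lower. Irf7, a regulator that interferon strongly induces, had at most 2 counts in any group, and Usp18, which removes ISG15 from proteins, at most 5.

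With RA, 9 of the 13 genes of the receptor, JAK and STAT list rose in WT and 9 in KO (edgeR), where 3631 and 4145 of 14659 genes rose. Ifnlr1, a receptor gene for type III interferon, fell in both (log2 -2.47 and -1.11). Those that rose included Jak2 (log2 2.05 and 1.75), Jak1 (1.23 and 1.56), Il10rb (2.99 and 2.37) and Ifngr1 (1.37 and 1.38). Gbp7 in WT was at 0.729 and 1.29 CPM untreated (11 counts in all) and 5.5 CPM after RA (21 counts, log2 2.58, SE 0.60). In KO it was at 4.3 to 8.17 CPM untreated and 3.99 and 4.64 CPM after RA. Gbp7 was already higher in untreated KO, so these values are a description, as for the members. Ifitm7 fell in both (-1.60 and -3.16). No gene of the lists was called between KO and WT after RA (60 tested) or with Dox (38 tested) by edgeR or DESeq2. Among all genes edgeR called 0.396% and 1.8%, so few calls were to be had among so few genes, and nothing is read from their absence. With edgeR 3 and 4 of the list genes had an unadjusted p under 0.05. The lists were drawn up with earlier results of these data known.

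Feeder fibroblast markers moved with some of these groups. The 16 markers summed to 27.6 to 47.6 CPM for WT of set 1 against 119 to 153 for KO. The sums were 114 to 143 for WT of set 2 against 161 to 232 for KO, and 912 to 1013 after RA. In KH2 they were 838 to 890 CPM without Dox and 499 to 615 with it. In set 1 only 4 of the 16 markers passed the count filter: Col1a1, Col1a2, Mmp2 and Fbln2. All 4 were higher in KO (edgeR), where 702 of 9764 genes were, with a median log2 fold change of 1.96. That of Col1a1 was 2.89 (SE 0.38). A marker low in WT can pass the filter through its KO samples alone, so 4 of 4 is a description. Over both sets 3 of 13 tested were higher and in set 2 2 of 15, against 1200 of 11515 and 715 of 12681 among all genes. Lum was at 0 in 5 of the 8 groups, and Dcn and Postn in WT of set 1. The 8 immune cell markers summed to 15 to 31 CPM for WT and 17.7 to 32.9 CPM for KO of set 1, and to 6.25 to 6.46 and 5.9 to 7.91 CPM in set 2. Of these, 2 were tested over both sets, where 1200 of 11515 genes were higher in KO. Ptprc was higher in KO (log2 1.98, SE 0.64, edgeR adjusted p = 0.031). No immune marker was called within set 1 (2 tested) or within set 2 (1 tested). Ptprc had means of 2.57 CPM in WT and 10.3 CPM in KO of set 1. It was at 0 counts in 4 of the 8 groups, including set 2 WT. Adgre1 was at 0 in 6. The part of other cells in the members' levels was not tested, and in bulk RNA fewer cells that express a gene cannot be told apart from less of its RNA per cell.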

How the data were processed

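The deposited values are whole-number counts of reads per gene, made by the authors with featureCounts 1.6.0 on Ensembl 97 exons of GRCm38, per the file headers, at its default settings (unstranded, reads on more than 1 gene left out). STAR 2.5.4b and Subread 2.0.0 are named in the submitters' processing notes. Libraries were made from 500 ng of RNA, per the labels. All 55573 genes entered. Libraries with the same title code were summed, and samples grouped by their titles.

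Genes were tested with edgeR 4.0.16 in R 4.3.3: TMM scaling, a low-count filter (filterByExpr, minimum count 10, minimum total 15), robust quasi-likelihood F tests, and Benjamini-Hochberg adjustment over all genes tested, with 0.05 as the threshold. The RA fit took all set 2 samples by group, and lone samples share the pooled spread. The SE is the log2 fold change divided by the square root of F. CPM are scaled by TMM over all 19 samples, or over all 23 libraries where libraries are shown. Intervals of ratios are exact binomial, at 95%, on summed counts. They and the floor (3 counts of a sample's total) cover counting error only, since tags without molecular identifiers are not independent molecules. The fit was tested on simulated data. Promoter sequences are RefSeq's.

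The members and gene lists were chosen with earlier results of these data known. Named are all 8 members, Set, the called genes of each list with the smallest adjusted p (up to 4 per comparison), and the 3 genes most like each member with a mean of at least 5 CPM (log2(CPM + 1), 19 samples); some genes are not reported here. Irf7, Usp18, Ifnk, Ifnb1 and Ifng were added after their values were seen, as were some called genes beyond the rule. Alternatives were DESeq2 1.42.0 (its test, and its size factors within edgeR), no low-count filter, each sample left out, libraries not summed, a replicate block, 1 sample per line and set, KO1 alone as the control of the KO RA samples, the library cluster as a covariate and, chosen after seeing the data, each library cluster alone.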

Additional observations from a re-analysis of the deposited data

Results flagged for a closer look

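Isg15 in the set 1 KO1 sample 1d was 2.77 CPM (4 counts), apart from the other 3 KO samples of that set at 6.95 to 7.74 CPM (7 to 11 counts). It is 1 sample flagged as far from its group among 16 sets of 4 values examined, and chance flags about 1 in 20. The same sample had the highest Ifitm3 (318 CPM) and Irf1 (200.3 CPM) of the set 1 KO samples.

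The KO effect on Ifitm3 differed between the sets by -1.06 on the log2 scale (set 2 minus set 1, SE 0.24). The difference passed the threshold with all samples but not in 6 of the 12 fits that left out 1 sample (1a, 1b, 1e, 2a, 2b or 2d). It is built from the untreated values that the members were chosen by and is a description. Set tags were at 21.7 ± 3.53 CPM in the KO samples of set 1 and at 437 ± 131 CPM in those of set 2 (SD, n = 4 each). Their part in the difference was not tested.

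The RA effect on Gbp2b differed between genotypes by -1.97 on the log2 scale (KO minus WT, SE 0.43). It contains the untreated KO against WT contrast, in which this gene was already known to differ.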

How the results depend on the processing

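For the members, 986 of 1072 refitted values kept their direction and their side of the threshold, 33 changed sign, 29 newly passed it and 24 no longer did. The causes were not tested. Replicate numbers did not pair the samples (correlations of same-numbered libraries from -0.267 to 0.225). With the replicate block, 454 genes were called in set 2 (KO against WT, libraries kept separate), 724 with Dox, and Ifitm1 in set 2 was -0.0272. With libraries kept separate and no block, 759 genes were called in set 2, 8 between genotypes after RA, 2 for the RA difference (no member) and 1 between lines in set 2, with Ifitm1 at -0.0599 in set 2 and Ifitm3 at -0.0191 between lines. Without the low-count filter the counts were 171 for the set difference, 25 and 22 between lines in sets 1 and 2, 94 after RA and 284 for the RA difference (4 members), with Ifitm1 at -0.0029 in set 2. DESeq2 called 98 genes and 0 members for the RA difference and 127 genes with Dox, and put Gbp2 between lines in set 1 at -0.0106. One sample per line and set gave 1426 genes for KO against WT in both sets. The library cluster as a covariate gave 5 members in set 2 (Gbp2, Gbp2b, Isg15, Ifitm3 and Irf1) in place of 3, with Ifitm1 at -0.0721. Cluster A alone, an alternative chosen after seeing the data like cluster B, gave 434 genes in set 2 (Ifitm1 -0.10), 164 after RA, 336 and 4 members for the RA difference, and Gbp2 -0.0457 and Gbp3 -0.061 with RA in KO. Cluster B alone gave 160 after RA, 380 and 2 members for the RA difference, Ifitm1 -0.0511 in set 2 and Irf1 -0.40 with RA in WT.

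Leaving out 1 sample at a time moved the counts of genes called to 570 (without 1a) to 1388 (without 1d) in set 1, 195 (without 2b) to 2335 (without 2f) in set 2, with 2 to 5 members, and 22 (without 1a) to 127 (without 1d) for the set difference, with 0 to 1 members. They ran from 1 to 196 (without 1c) between lines in set 1, from 1 to 56 (without 2e) in set 2, from 15 (without 2i) to 98 (without 2f) after RA, from 27 (without 2b) to 388 (without 2f) for the RA difference, with 0 to 3 members, and from 6 (without KH2 replicate 2, no Dox) to 234 with Dox. On the log2 scale, signs changed for the set difference of Isg15 (-4.06 to 0.46), Ifitm2 (-0.47 to 0.38) and Ifitm1 (-0.23 to 0.0105), for Ifitm1 in set 2 (-0.12 to 0.13), between lines for Gbp2 (-0.26 to 0.21) and Ifitm2 (-0.21 to 0.43) in set 1 and Gbp3 (-0.26 to 0.38) and Ifitm3 (-0.10 to 0.11) in set 2, after RA for Gbp2b (-0.30 to 0.27) and Isg15 (-0.44 to 0.64), for Gbp2b with RA in KO (-0.13 to 0.45) and for Ifitm3 with Dox (-0.0359 to 0.54). None of these passed the threshold in the fit of all samples.

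Depth limits Gbp3 and Isg15 most: in set 1 they had 2 and 1 counts over both WT samples and entered no test there, and without the filter their log2 fold changes were 2.92 and 3.56. The lone WT RA sample, 2 samples per group elsewhere and the overlap of the Ifitm transcripts limit the rest.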

Other observations

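Beyond the members and their pathway described above, 18 other interferon-stimulated genes were tested with RA. Of these, 6 fell in WT and 9 in KO, and 1 rose in each (edgeR), where 47.3% (WT) and 55.1% (KO) of all genes were called in either direction. Bst2, which encodes tetherin and holds budding virus at the cell surface, fell by 1.33 on the log2 scale in WT (SE 0.22) and by 1.67 in KO (SE 0.15), from 56.0 to 82.0 CPM in untreated cells to 21.7 to 26.2 CPM. Dtx3l fell by 1.39 and 1.88, Pml, the organiser of nuclear bodies, by 1.44 and 1.02, and Trim25, a ubiquitin ligase of the RNA sensing pathway, by 1.57 and 0.73.

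Among 12 genes of nucleic acid sensing tested, Adar, which edits double-stranded RNA, fell by 1.83 in WT and 1.22 in KO, and Aim2, a sensor of cytosolic DNA, by 1.5 and 1.59. Tmem173, which encodes STING, rose by 2.18 and 1.47 and Eif2ak2, which encodes PKR, by 0.83 and 0.77. Irf2, a regulator that competes with IRF1 for its sites, rose by 4.45 in WT (SE 0.55) and 2.14 in KO (SE 0.37). In untreated WT, Irf2 was at 0 and 1.04 CPM (10 counts in all) and Tmem173 at 0.646 and 0.834 CPM (10 counts in all). The WT RA sample had 66 and 14 counts, so the sizes of these 2 changes in WT are poorly known. None of these genes was called between KO and WT after RA (edgeR), where 0.396% of all genes were. Of all 60 list genes, 1 was called higher for the difference of its RA effect, Trim25 (0.84, SE 0.21, edgeR adjusted p = 0.049). The 2 called lower were Gbp7 (-3.20, SE 0.70, edgeR adjusted p = 0.019) and Ifi35 (-1.45, SE 0.36, edgeR adjusted p = 0.043). Among all genes 1.09% were called. Gbp7 and Ifi35 were already higher in untreated KO, a contrast this difference contains. DESeq2 called 0 of the 60 list genes for that difference.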
